A study of Mus musculus with 574 samples.

Results

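The 10 genes described here mark GABAergic neurons, the inhibitory neurons that release gamma-aminobutyric acid (GABA), and were followed through mouse ventral midbrain development. They are Gad1, Gad2, Slc32a1, Gata2, Gata3, Tal1, Sox14, Helt, Dlx1 and Dlx2, chosen by name, with earlier results of these data known. All 10 had a row among the 23706 genes of the table of cell pools and among the 25489 genes of the table of single cells, and all 10 passed the filter on low values that left 15871 genes to test. The cells came from embryos on a C57BL/6 background with 1 copy of an Lmx1a-EGFP allele, which makes green fluorescent protein (GFP) where the floor plate gene Lmx1a is active. The pools held 100 cells each and numbered 6 of GFP positive cells at E13.5 (E for embryonic day), 6 of GFP negative cells at E13.5, 6 of GFP positive cells at E10.5 and 6 of GFP negative cells at E10.5. A further 550 libraries were single cells with no GFP class in their labels, of which 24.9% were from E10.5, 16.4% from E11.5, 32.4% from E12.5 and 26.4% from E13.5. All groups share the reporter allele and the labelled tissue, the ventral midbrain, and the series asks how dopamine neurons and neurons of the subthalamic nucleus relate in lineage.

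GABA is made from glutamate by the glutamate decarboxylases encoded by Gad1 and Gad2, and it is loaded into synaptic vesicles by the transporter that Slc32a1 encodes. Neurons choose this transmitter under fate factors that differ along the brain. In the mouse midbrain, the basic helix-loop-helix factor Helt and the zinc finger factor Gata2 act early in GABAergic precursors, and Gata3, Tal1 and Sox14 mark their differentiating offspring. In the ventral forebrain and rostral diencephalon, the homeodomain factors Dlx1 and Dlx2 do so. Midbrain dopamine neurons and subthalamic neurons descend from cells with Lmx1a, and subthalamic neurons use glutamate.

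Values are in RPKM, which scales reads by transcript length in kilobases and by library size in M (mega) reads, with a depth, estimated from the values, of 1.30 to 3.67 M reads in pools and 0.401 to 7.35 M reads in cells. Pools of a group correlated at Pearson r of 0.934 to 0.960 across genes. The labels name no embryo or litter, so p-values cover the spread among these pools alone, possibly a technical one, and the single cells of a stage are treated as 1 sample. The reporter followed the sort: EGFP spanned 51.1 to 80.3 RPKM in E13.5 GFP positive pools, against 0 in each E13.5 GFP negative pool, and it spanned 170.4 to 230.7 RPKM in E10.5 GFP positive pools, against 0 to 5.82 RPKM in E10.5 GFP negative pools. Otx2, a forebrain and midbrain homeobox gene, was present in all 24 pools, at 43.7 RPKM or more. Globin transcripts took 3.48% to 9.60% of the RPKM in 5 of 6 E10.5 GFP negative pools and 0.00537% in pool 4 of that group. They took 3.13% and 2.69% in E13.5 GFP negative pools 3 and 5, and at most 0.0179% in the remaining pools. In bulk libraries, fewer cells of a type and less RNA per cell cannot be told apart.

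At E13.5 the genes of GABA synthesis and loading were far lower in GFP positive than in GFP negative pools. Gad2, on chromosome 2 from 22622205 to 22693874 (plus strand, GRCm38, GENCODE M21), had a lowest, median and highest value of 1.53, 5.21 and 9.83 RPKM in GFP positive pools, against 67.3, 88.3 and 121.03 RPKM in GFP negative pools. The groups stood well apart, and the log2 difference in RPKM + 1 was -3.96 ± 0.31 (SE, n = 6 each; limma adjusted p = 1.15e-09). Gad1, on chromosome 2 from 70553072 to 70602014 (plus strand), spanned 0 to 3.64 RPKM with a median of 0.882 in GFP positive pools, against 33.5 to 63.1 RPKM with a median of 40.6 in GFP negative pools. Its log2 difference was -4.47 ± 0.39 (limma adjusted p = 8.95e-09). For both genes the highest GFP positive pool remained below the lowest GFP negative pool. Slc32a1, on chromosome 2 from 158610767 to 158615748 (plus strand), was the least abundant of the 3 genes, at 0.182, 0.844 and 3.66 RPKM in GFP positive pools, against 4.82, 6.73 and 8.69 RPKM in GFP negative pools (log2 difference -1.89 ± 0.32; limma adjusted p = 0.000247).

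The fate factors followed the same sort at E13.5. Gata3, a GATA zinc finger factor on chromosome 2 from 9857078 to 9890034 (minus strand), had 0.109, 0.654 and 2.37 RPKM in GFP positive pools, against 36.7, 47.96 and 62.6 RPKM in GFP negative pools, a log2 difference of -4.78 ± 0.38 (limma adjusted p = 1.3e-09). Gata2, on chromosome 6 from 88193891 to 88207032 (plus strand), averaged 0.353 ± 0.513 RPKM in GFP positive pools and 24.03 ± 6.05 RPKM in GFP negative pools (SD, n = 6 each). Tal1, a basic helix-loop-helix factor on chromosome 4 from 115056426 to 115071755 (plus strand), averaged 0.444 ± 0.810 RPKM in GFP positive pools and 10.6 ± 4.36 RPKM in GFP negative pools. All of these GATA-group genes were separated without overlap. Sox14, an HMG-box factor on chromosome 9 from 99874106 to 99876170 (minus strand), was listed at 0 in 4 GFP positive pools and reached 5.65 RPKM in pool 2, against 15.1 to 38.4 RPKM in GFP negative pools.

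Dlx1 and Dlx2, neighbouring homeodomain genes on chromosome 2 (71528113 to 71533981, plus strand, and 71543408 to 71546754, minus strand), were also lower with GFP. Dlx1 had 0, 0.204 and 12.48 RPKM in E13.5 GFP positive pools, against 36.5, 67.5 and 120.9 RPKM in GFP negative pools (log2 difference -5.00 ± 0.48; limma adjusted p = 4.46e-08). Its highest GFP positive value, in pool 5, coincided with the highest Dlx2 value of that group, 3.466 RPKM. Dlx2 was at 0 in 4 of 6 GFP positive pools and spanned 3.469 to 29.2 RPKM in GFP negative pools, so that the groups only just failed to overlap. Exons of Dlx1 overlap those of its antisense gene (Dlx1as in GENCODE, Dlx1os in the table), those of Slc32a1 overlap Gm14205 on the opposite strand, and those of Gata3 overlap Gm13256 on the opposite and 9230102O04Rik on the same strand. Whether counting used strand is not given in the sources used here, so reads of these partners cannot be told apart. Dlx1os averaged 1.03 ± 1.07 RPKM in E13.5 GFP positive pools and 10.8 ± 3.03 RPKM in GFP negative pools.

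Helt, on chromosome 8 from 46292039 to 46294671 (minus strand), was the exception at E13.5. It was listed at 0 in 5 of 6 GFP positive pools with 0.249 RPKM in pool 6, and at 0 in 4 of 6 GFP negative pools with 16.4 RPKM in pool 3 and 1.43 RPKM in pool 6. The groups overlapped at 0, and the log2 difference of -0.85 ± 0.58 missed the threshold (limma adjusted p = 0.461). In all, 9 of 10 genes were lower with GFP at E13.5, against 3.74% of all genes tested that were called lower. The 9 called genes also had no overlap between the 6 values of each group, which 2.18% of all genes tested showed in that direction. The median log2 difference was -3.96 over the 10 genes and -0.03 over all genes tested.

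**Figure D1:**
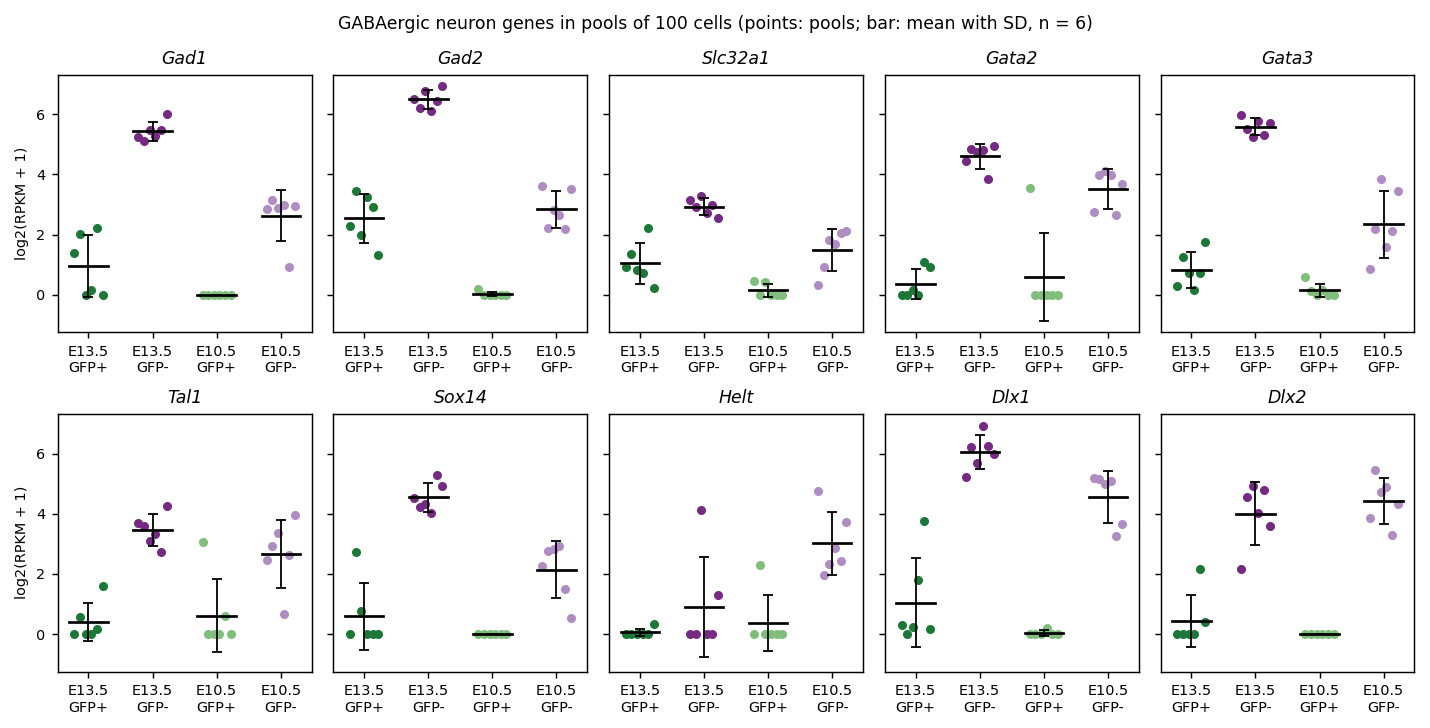
Level of each gene as log2(RPKM + 1) on the vertical axis in pools of 100 cells, by stage and GFP class; points are pools, bars are means with SD (n = 6). GFP positive pools lie near 0 for most genes at both stages, with single pools set apart for Gata2, Tal1, Helt, Sox14 and Dlx1.

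At E10.5 all 10 genes were lower in GFP positive pools, against 8.64% of all genes tested. Dlx1 had 0, 0 and 0.157 RPKM in GFP positive pools, against 8.66, 31.7 and 35.5 RPKM in GFP negative pools (log2 difference -4.52 ± 0.48; limma adjusted p = 1.11e-07). Dlx2 had 0 in each GFP positive pool, against 8.75 to 43.1 RPKM in GFP negative pools. These homeodomain genes were the most abundant of the 10 in E10.5 GFP negative pools, per length, with means of 25.6 and 23.01 RPKM. Gad1 was at 0 in every GFP positive pool, against 0.876, 6.58 and 7.87 RPKM in GFP negative pools. Gad2 reached 0.137 RPKM in 1 of 6 GFP positive pools, against 3.60 to 11.3 RPKM in GFP negative pools (log2 difference -2.81 ± 0.31; limma adjusted p = 1.9e-07). Sox14 was at 0 in every GFP positive pool and had 0.454, 4.78 and 6.58 RPKM in GFP negative pools. Gad1, Gad2, Gata3, Sox14, Dlx1 and Dlx2, 6 of the 10, did not overlap between groups, which 4.26% of all genes tested showed in that direction. The median log2 difference was -2.63 over the 10 genes and -0.01 over all genes tested.

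Helt was at its highest in the E10.5 GFP negative pools. It had 3.86 RPKM in GFP positive pool 2 and 0 in the other 5 GFP positive pools, against 2.86, 5.38 and 25.95 RPKM in GFP negative pools (log2 difference -2.63 ± 0.58; limma adjusted p = 0.00205). Slc32a1 was low in both groups, at 0 to 0.365 RPKM in GFP positive pools and 0.266 to 3.33 RPKM in GFP negative pools, so that the groups overlapped.

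Gata2 and Tal1 are also genes of blood and vessel development, and 1 GFP positive library stood apart for both. E10.5 GFP positive pool 1 had 10.8 RPKM of Gata2 and 7.28 RPKM of Tal1, while the other 5 pools had 0 of Gata2 and at most 0.532 of Tal1. The same pool had 54.97 RPKM of Pf4, a gene of platelet precursors looked up after these values were seen. That pool had 0 of Gad1, Sox14, Helt, Dlx1 and Dlx2. It also had the highest Gad2 (0.137 RPKM), Slc32a1 (0.365) and Gata3 (0.501) of its group. Pf4 was at most 0.644 RPKM in the other E10.5 GFP positive pools. The summed red blood cell genes of pool 1 (66.4 RPKM) lay within the 39.3 to 82.1 RPKM of its group. E10.5 GFP negative pool 2 had 74.4 RPKM of Pf4, 14.8 of Gata2 and 6.56 of Tal1. GFP negative pool 3 had 0 of Pf4, 16.4 of Gata2 and 9.25 of Tal1. The source of Gata2 and Tal1 in these pools was not tested. In E10.5 GFP negative pools Gata2 had 5.24, 13.3 and 16.4 RPKM, and Tal1 had 0.573, 5.87 and 14.6 RPKM. Pool 4 of that group, the one nearly free of globins, had 14.96 RPKM of Gata2, 32.8 of Dlx1, 28.5 of Dlx2, 6.97 of Gad1 and 6.31 of Helt, but the lowest Tal1 of the group, 0.573 RPKM.

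Markers of other cell types moved with the sort at E10.5. The summed level of the 11 red blood cell genes was 39.3 to 82.1 RPKM in GFP positive pools and 42.5 to 78529 RPKM in GFP negative pools. The 6 endothelial genes summed to 0.872 to 3.61 RPKM in GFP positive pools and 2.33 to 42.6 RPKM in GFP negative pools, and the 6 microglia and macrophage genes to 0 to 1.14 RPKM in GFP positive and 0 to 516 RPKM in GFP negative pools. The 6 mesenchyme and pericyte genes summed to 1.38 to 22.9 RPKM in GFP positive pools and 108.1 to 257 RPKM in GFP negative pools. Of these lists, 3 red blood cell, 1 endothelial, 4 microglia and macrophage and 1 mesenchyme and pericyte gene were at 0 in every GFP positive pool, and none was at 0 in all 6 GFP negative pools. With the 5 globin-rich pools left out, 1 E10.5 GFP negative pool remained, assumed to vary like the others. In that fit 9 of the 10 genes were tested, and fewer of them were called lower than with all pools. Without those pools the log2 difference of Tal1 was -0.04 (limma adjusted p = 0.999), that of Gata3 -1.44 (0.171) and that of Slc32a1 -1.54 (0.175), and Helt did not pass the filter. The 8 pan-neuronal genes, such as Tubb3 and Mapt, were also all lower in E10.5 GFP positive pools, with a median log2 difference of -2.32 and summed levels of 277 to 457 RPKM, against 1273 to 2317 RPKM in GFP negative pools. The part of these markers in the result was not tested. At E13.5 the summed pan-neuronal level was 3762 to 4224 RPKM in GFP positive and 4088 to 4682 RPKM in GFP negative pools. There 1 of 8 pan-neuronal genes was lower (Nefl, -1.15, limma adjusted p = 0.018). Without GFP negative pools 3 and 5, 9 of the 10 genes were also called lower, in a fit that called 769 of all genes tested in either direction. Gata2 and Gata3 are also genes of serotonergic neurons, and the 3 serotonergic genes summed to 0 to 2.85 RPKM in E13.5 GFP positive pools and 12.7 to 126.6 RPKM in E13.5 GFP negative pools. The 4 forebrain genes in the table summed to 0.458 to 13.7 RPKM in E13.5 GFP positive pools and 70.6 to 111.2 RPKM in E13.5 GFP negative pools, and all 4 were called lower. Their part in the result was not tested.

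**Figure D2:**
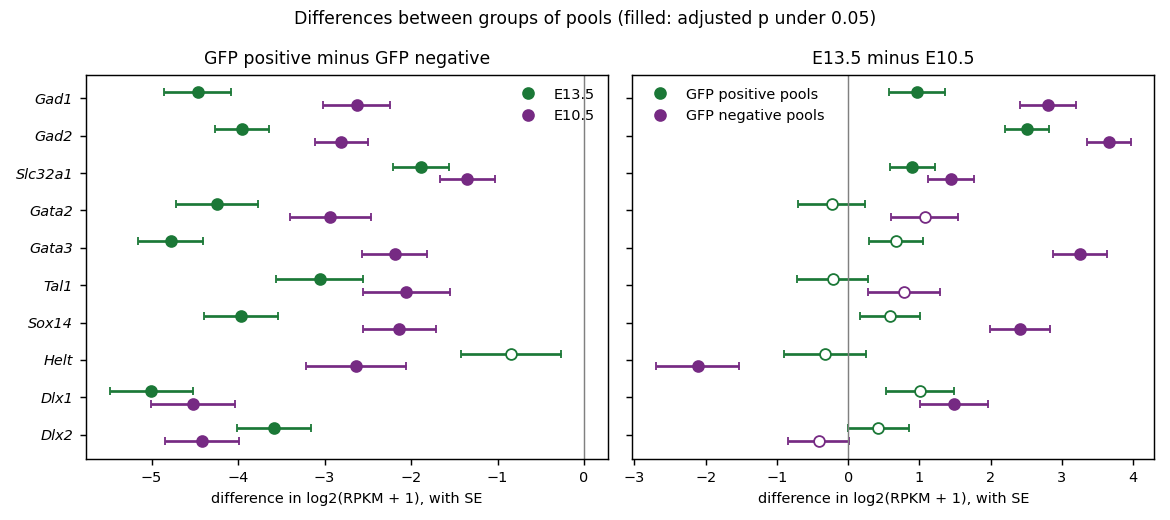
Log2 differences in RPKM + 1 with their standard errors from limma, between GFP classes at each stage (left) and between stages in each GFP class (right); filled points have an adjusted p under 0.05. The difference between GFP classes is negative for every gene, and Helt at E13.5 is the open point on the left.

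With stage, Gad2, Gad1 and Slc32a1 were called higher at E13.5 in both GFP classes. In GFP positive pools Gad2 had 1.53 to 9.83 RPKM at E13.5, against 0 to 0.137 RPKM at E10.5, a log2 difference of 2.51 ± 0.31 (limma adjusted p = 1.41e-07). Gad1 (0.97 ± 0.39; adjusted p = 0.0388) and Slc32a1 (0.90 ± 0.32; adjusted p = 0.0201) also rose, so that 3 of 10 genes were higher, against 22.1% of all genes tested, a share near that background. Only Gad2 of the 10 had groups without overlap, which 12.8% of all genes tested showed in that direction. Without E13.5 GFP positive pool 5, Gad2 was the 1 gene called, and the call of Gad1 ended for 9 of the 12 pools left out in turn (limma adjusted p from 0.0161 to 0.12). Neither Gata2, Gata3, Tal1, Sox14, Helt, Dlx1 nor Dlx2 passed the test in GFP positive pools. All 8 pan-neuronal genes were higher (median log2 difference 3.15) and 6 of 7 neural progenitor genes lower in the same comparison, and their part in the result was not tested.

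In GFP negative pools 6 of 10 genes were higher at E13.5, against 19.7% of all genes tested. Gad2 had 67.3 to 121.03 RPKM at E13.5, against 3.60 to 11.3 RPKM at E10.5 (log2 difference 3.66 ± 0.31; limma adjusted p = 3.64e-10). Gata3 had 36.7 to 62.6 RPKM at E13.5, against 0.823 to 13.6 RPKM at E10.5 (3.25 ± 0.38; adjusted p = 7.94e-08). Gad1 (2.81 ± 0.39), Sox14 (2.41 ± 0.43), Dlx1 (1.49 ± 0.48) and Slc32a1 (1.44 ± 0.32) rose too. Helt fell, with a log2 difference of -2.11 ± 0.58 (limma adjusted p = 0.00391), in a comparison that called 26.9% of all genes tested lower. Dlx2 (-0.41 ± 0.43), Tal1 (0.79 ± 0.50) and Gata2 (1.07 ± 0.47) did not pass the test, though Gata2 was called under 6 of the alternatives run, among them a pseudocount of 5 (0.85; limma adjusted p = 0.00632) and a fit on these 12 pools alone (1.07; limma adjusted p = 0.00731). With a pseudocount of 0.1 Dlx1 was not called (1.53; limma adjusted p = 0.113). Without the 5 globin-rich E10.5 pools, which leaves 1 pool at E10.5, neither Sox14 (1.63; limma adjusted p = 0.129), Slc32a1 (1.24; 0.126) nor Dlx1 (0.96; 0.499) was called and Helt was not tested, while Tal1 was called (2.80; 0.0265). Markers of other cells moved with stage in these pools: 7 of 9 red blood cell, 3 of 3 endothelial, 6 of 6 microglia and macrophage, 5 of 5 mesenchyme and pericyte and 7 of 7 neural progenitor genes tested were lower at E13.5, and 7 of 8 pan-neuronal genes were higher. Their part in the result was not tested. Of the 10 genes, Gad1, Gad2, Slc32a1, Gata3, Sox14 and Dlx1 had no overlap between stages, which 11.3% of all genes tested showed in that direction.

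The difference between GFP classes was larger at E13.5 for 2 of the 10 genes, Gata3 (difference of log2 differences -2.59 ± 0.53; limma adjusted p = 0.00282) and Gad1 (-1.84 ± 0.55; adjusted p = 0.0444), against 1.90% of all genes tested that were called in that direction. The call of Gad1 sits close to the threshold: leaving out a single pool ended it for 18 of the 24 pools (limma adjusted p from 0.0162 to 0.0806). It also ended without the globin-rich pools of E13.5 (-1.81; limma adjusted p = 0.093) or of E10.5 (-1.47; 0.514). With a pseudocount of 0.1 neither gene was called.

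Other genes of the GABA pathway are given by list, with no test between lists. Of 21 tested fate factors, 16 were lower and none was higher in E13.5 GFP positive pools, where 3.74% of all genes tested were lower, with a median log2 difference of -1.81. In E10.5 GFP positive pools 12 were lower and 1, the LIM-only factor gene Lmo3 (0.76 on the log2 scale), was higher, where 8.64% of all genes tested were lower, with a median log2 difference of -1.05. Those with the largest called differences at E13.5 were the LIM homeobox genes Lhx5 (-3.98), Lhx1 (-3.87) and Isl1 (-3.79) and the homeobox gene Dlx5 (-3.77). At E10.5 they were Isl1 (-4.77), Dlx5 (-4.45), Nkx2-2 (-3.21) and Lhx5 (-2.32). Isl1 is also in the list of red nucleus and motor neuron genes. Of that list, 3 of 4 genes tested were lower with GFP at E10.5 (median log2 difference -2.55) and 2 of 4 at E13.5 (median -1.18). The part of red nucleus and motor neurons in the Isl1 result was not tested. Aldh5a1, an enzyme of GABA breakdown, was the 1 called gene of 6 tested for synthesis, uptake and breakdown at E13.5 (-0.85 ± 0.26; limma adjusted p = 0.0453). Of 16 GABA receptor and chloride transporter genes, 3 were lower at E13.5 (Gabrb1 -1.88, Gabra5 -1.85, Gabra4 -1.63).

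At E13.5 against E10.5, 12 of the 16 receptor and chloride transporter genes were higher and 1 was lower among GFP positive pools, and 15 were higher and 1 was lower among GFP negative pools, where 22.1% and 19.7% of all genes tested were higher. The gene that was lower in both was Slc12a2, a chloride importer (-1.21 on the log2 scale among GFP positive and -0.97 among GFP negative pools). Of 9 neuropeptide and subtype genes tested, the prepronociceptin gene Pnoc (-3.21), the somatostatin gene Sst (-4.89), Cartpt (-6.03) and the homeobox gene Otp (-1.67) were lower and the calcium-binding protein gene Calb2 (3.07) higher in E13.5 GFP positive pools, with 4 lower and 1 higher in all. Slc17a6, the vesicular glutamate transporter of these neurons, was not called in either GFP comparison. It averaged 81.4 ± 18.9 RPKM in E13.5 GFP positive pools and 46.8 ± 5.13 RPKM in GFP negative pools. Among single cells, neither Cartpt nor Otp reached an RPKM of 10 in any of the 56 cells with Gad1 or Gad2. In the 170 cells with Slc17a6 and neither Gad gene, Cartpt did so in 9 and Otp in 7. Pnoc did so in 26 and 2 cells of these 2 kinds, Sst in 10 and 5 and Calb2 in 3 and 12.

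Across the 24 pools, which fall into 4 groups so that a correlation mostly follows the group means, the genes most like Gad2 in log2(RPKM + 1) were Gm14204 (Pearson r = 0.959), 1500016L03Rik (0.947), Enho (0.944), Zfpm2 (0.935), which encodes a cofactor of GATA factors, and Fstl5 (0.928). Those most like Tal1 were Lhx1 (0.822), Lhx5 (0.821), Six3 (0.812), Insm2 (0.804) and Six3os1 (0.802). Those most like Dlx1 were Islr2 (0.93), Dlx5 (0.93), Dlx1os (0.927), Shox2 (0.894) and Lhx1 (0.891). Among the 10 genes themselves, Helt had the lowest values, with r of 0.139 to 0.583 to the other 9. Gad1 and Gad2 had r of 0.935, and Dlx1 and Dlx2 0.924.

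Promoters are shown for the 4 genes in which a script found a GATA-factor motif, since Gata2 and Gata3 belong to the group. The motif was searched on both strands as AGATAA, as its variant AGATAG, as TGATAA and also as TGATAG in the 250 bases before each annotated start (RefSeq, GRCm38.p6), in 12 windows of the 10 genes. Capitals mark the match.
Slc32a1, chr2:158610508-158610757, plus strand: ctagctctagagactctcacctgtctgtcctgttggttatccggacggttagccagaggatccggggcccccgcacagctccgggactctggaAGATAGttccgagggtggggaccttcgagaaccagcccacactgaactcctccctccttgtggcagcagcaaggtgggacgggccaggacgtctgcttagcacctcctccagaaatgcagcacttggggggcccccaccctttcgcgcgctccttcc
Tal1, chr4:115056176-115056425, plus strand: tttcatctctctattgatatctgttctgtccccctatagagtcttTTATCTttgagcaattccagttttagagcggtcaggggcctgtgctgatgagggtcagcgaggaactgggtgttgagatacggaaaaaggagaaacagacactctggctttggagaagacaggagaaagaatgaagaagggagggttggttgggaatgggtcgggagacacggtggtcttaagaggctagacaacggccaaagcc
Sox14, chr9:99876171-99876420, minus strand: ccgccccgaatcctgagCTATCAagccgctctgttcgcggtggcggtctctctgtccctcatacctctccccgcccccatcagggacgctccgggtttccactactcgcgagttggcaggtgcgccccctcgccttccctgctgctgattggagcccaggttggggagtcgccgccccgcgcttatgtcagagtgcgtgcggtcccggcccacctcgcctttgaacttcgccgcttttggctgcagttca
Dlx2, chr2:71546755-71547004, minus strand: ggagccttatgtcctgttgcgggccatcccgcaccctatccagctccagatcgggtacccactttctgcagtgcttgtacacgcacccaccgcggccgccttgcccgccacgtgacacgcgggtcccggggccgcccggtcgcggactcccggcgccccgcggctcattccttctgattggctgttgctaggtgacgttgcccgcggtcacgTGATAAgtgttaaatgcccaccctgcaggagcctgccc
Of all 32851 windows of that length, 26.5% hold such a motif. The homeodomain motifs TAATTA and TAATTG (4.84% and 7.17% of all windows) and the E-box CAGCTG (13.001%) were in none of the 12 windows. These are matches of letters, and no binding was measured.

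For single cells, presence of a gene means an RPKM of 10 or more, and intervals are exact 95% Clopper-Pearson intervals that cover counting error only. Where a count is 0, the share it allows is given as 3 cells of the number examined. Gad1 or Gad2 was present in 2 E10.5 cells (1.46% of that stage, interval 0.177% to 5.17%), 8 E11.5 cells (8.89%, 3.92% to 16.8%), 26 E12.5 cells (14.6%, 9.77% to 20.7%) and 20 E13.5 cells (13.8%, 8.63% to 20.5%). The interval at E10.5 lies below those at E12.5 and E13.5, while those of the 3 later stages overlap. The stages also differed in their share of reporter cells, since EGFP was present in 75.2% of cells at E10.5 and in 30%, 28.1% and 26.9% at the later stages. In cells with neither Lmx1a nor EGFP, a Gad gene was present in 2 of 28 at E10.5 (7.14%, 0.877% to 23.5%), 8 of 47 at E11.5 (17.02%, 7.65% to 30.8%), 20 of 82 at E12.5 (24.4%, 15.6% to 35.1%) and 15 of 67 at E13.5 (22.4%, 13.1% to 34.2%), and these 4 intervals overlap. At E12.5, where titles carry 2 letters of unknown meaning, the share was 7.94% for C (5 cells, 2.63% to 17.6%) and 18.3% for F (21 cells, 11.7% to 26.5%). Median depth was 1.30, 0.744, 1.40 and 1.76 M reads per cell from E10.5 to E13.5. At 2 kb an RPKM of 10 is about 14.9 reads in a median E11.5 cell and 35.2 in a median E13.5 cell.

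Levels are given only for cells in which a gene was present. The presence threshold chose these cells and sets a floor under their values, so whether levels are high in general cannot be read from them. Gad2 was present in 52 cells at 15.4 to 1416 RPKM (median 362), Gad1 in 37 at 11.003 to 716 (median 131.1), and Slc32a1 in 34 at 10.9 to 287 (median 33.04). Of the 37 cells with Gad1, 33 also had Gad2, and of the 34 with Slc32a1, 33 had Gad1 or Gad2. Gata3 was present in 26 cells (median 234 RPKM), Gata2 in 18 (92.4), Tal1 in 15 (48.2), Sox14 in 13 (186), Dlx1 in 32 (515), Dlx2 in 27 (322) and Helt in 6 (175.1). The neuronal tubulin gene Tubb3 was present in all 56 cells with Gad1 or Gad2. Mki67 or Sox2, genes of cycling cells and progenitors, was present in 0 of them.

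The fate factors divided most cells with a Gad gene into 2 sets. The 33 cells with Gata2, Gata3, Tal1 or Sox14 and the 33 with Dlx1 or Dlx2 were each 6% of all cells. At such shares a small overlap over all cells cannot show whether the sets keep apart. In all, 1 cell belonged to both. That cell, from E12.5, had 143.5 RPKM of Gata3 and 438 of Sox14 with 68.1 of Dlx2 and 2.83 of Dlx1. Among the 56 cells with Gad1 or Gad2, 26 had only the GATA-group factors, 23 only Dlx1 or Dlx2, 1 both and 6 neither. In these 56 cells the GATA-group factors were present in 48.2% and Dlx1 or Dlx2 in 42.9%. Within the GATA group the factors overlapped: all 13 cells with Sox14 and 12 of 15 with Tal1 had Gata3, and 13 of 18 with Gata2 did. Of the 27 cells with Dlx2, 26 had Dlx1. The grouping of cells was made after these values were seen, and is a description.

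**Figure D3:**
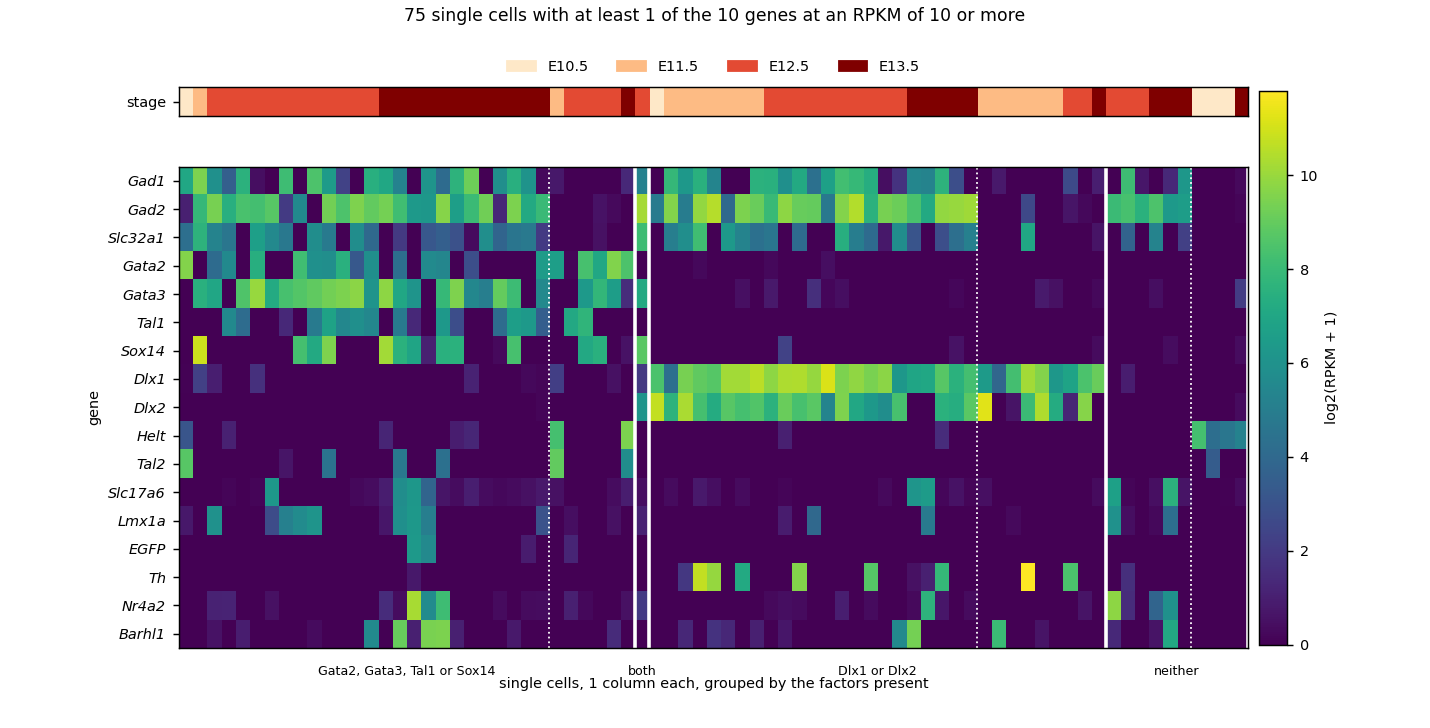
Level as log2(RPKM + 1) (colour) of the 10 genes and 7 others in the 75 single cells with at least 1 of the 10 at an RPKM of 10 or more; columns are cells, grouped by the fate factors they had, with dotted lines between cells with (left) and without Gad1 or Gad2. The blocks of Gata2, Gata3, Tal1 and Sox14 and of Dlx1 and Dlx2 share 1 cell. The 6 cells with Helt have neither Gad gene, like 494 of all 550 cells.

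The shares of both sets are given by stage. Dlx1 or Dlx2 was present in 1 E10.5 cell (0.730% of that stage, interval 0.0185% to 3.9997%), 13 E11.5 cells (14.4%, 7.92% to 23.4%), 13 E12.5 cells (7.30%, 3.95% to 12.2%) and 6 E13.5 cells (4.14%, 1.53% to 8.79%). The GATA-group factors were present in 1 (0.730%, 0.0185% to 3.9997%), 2 (2.22%, 0.270% to 7.80%), 17 (9.55%, 5.66% to 14.9%) and 13 cells (8.97%, 4.86% to 14.8%) at the same stages. Each stage is 1 sample, so no test between stages was made, and the intervals cover neither embryos nor dissections. At E11.5 Tal1 was present in 0 of 90 cells, which allows a share of up to 3.33%.

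**Figure D4:**
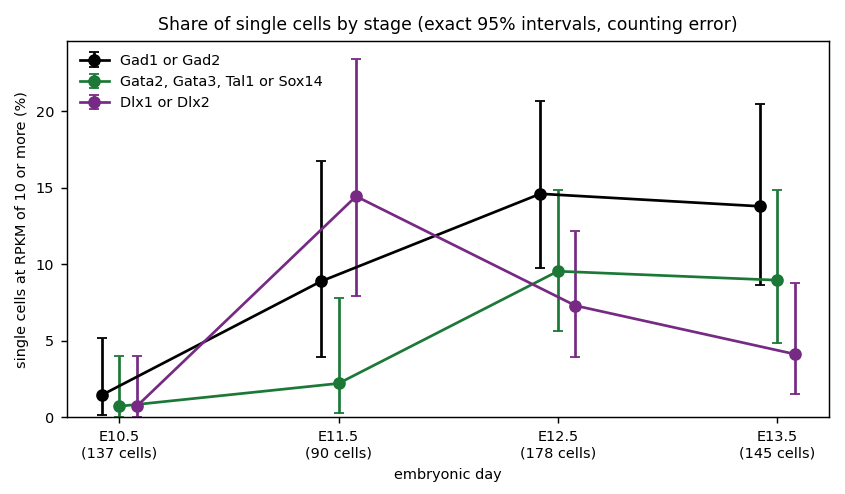
Share of single cells (vertical axis, %) at an RPKM of 10 or more by embryonic day, with exact 95% intervals for counting error and the number of cells under each stage. The share with Dlx1 or Dlx2 is highest at E11.5 (14.4%) and that with Gata2, Gata3, Tal1 or Sox14 at E12.5 (9.55%).

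Genes that did not define the sets are given as counts, with no test between the sets, which also differed in stage, with 1 of 26 and 7 of 23 cells from E11.5. Of the cells with Gad1 or Gad2, the homeobox gene Dlx5 was present in 0 of 26 with GATA-group factors only and 21 of 23 with Dlx only, and Isl1 in 0 of 26 and 11 of 23. The midbrain and hindbrain gene En1 was present in 7 of 26 and 0 of 23, Sst in 7 and 1, the homeobox gene Six3 in 9 and 4, and Otx2 in 7 and 3. Lhx1 (17 and 14) and Pnoc (13 and 12) occurred in both sets. Th, which encodes the enzyme that makes the dopamine precursor L-DOPA, was present in 0 of 26 and 6 of 23, at up to 1660 RPKM in E11.5 cell 13, and none of the 6 had Nr4a2, a nuclear receptor of dopamine neurons. E11.5 cell 25 had 3567 RPKM of Th with 1138 of Dlx1, 261 of Dlx2 and 128.1 of Slc32a1, and no Gad gene at the threshold.

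The 6 cells with Helt had neither Gad1 nor Gad2, like 494 of all 550 cells. So few cells cannot show whether Helt and the Gad genes keep apart. All 6 cells with Helt had Nkx2-2, a homeobox factor of ventral progenitors. E11.5 cell 18 had 314 RPKM of Helt, 97.4 of Gata2 and 500 of the basic helix-loop-helix gene Tal2, and E13.5 cell 70 had 705 of Helt, 357 of Gata2 and 54.7 of Tal2. E10.5 cell 50 had 790 RPKM of Gata2, 430 of Tal2 and 130.04 of Gad1, with Helt at 7.74.

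Gad genes in cells of the Lmx1a lineage are given within stages. At E12.5 Gad1 or Gad2 was present in 0 of 50 cells with EGFP, which allows a share of up to 6%, and in 6 of 90 with Lmx1a (6.67%, interval 2.49% to 13.9%), an interval below that of the cells with neither. At E13.5 a Gad gene was present in 2 of 39 cells with EGFP (5.13%, 0.627% to 17.3%) and in 5 of 73 with Lmx1a (6.85%, 2.26% to 15.3%), and both intervals overlap that of the cells with neither. No cell with EGFP or Lmx1a had one at E10.5 or E11.5. Over all stages the counts were 2 of 219 with EGFP (0.913%), 11 of 299 with Lmx1a (3.68%) and 56 of 550 in all (10.2%, 7.78% to 13.02%). Of the 56 cells with a Gad gene, 11 had Lmx1a (19.6%, 10.2% to 32.4%), at E12.5 and E13.5, and 2 had EGFP. None of the 10 genes was present in any of the 43 cells with both Th and Nr4a2, which allows a share of up to 6.98%, and 20 of these cells were from E13.5, where 0 allows up to 15%. In all cells Gad2 was present in 9.45%, and the other genes in 1.09% (Helt) to 6.73% (Gad1). For genes other than Gad2 the 0 counts thus cannot show whether they keep apart from these cells. At E13.5 the 15% limit holds the 13.8% with Gad1 or Gad2 in all cells of that stage. Of the cells with Barhl1, a homeobox gene of the subthalamic lineage, a Gad gene was present in 0 of 37 at E10.5, 0 of 26 at E11.5, 2 of 52 at E12.5 (3.85%, 0.469% to 13.2%) and 5 of 50 at E13.5 (10%, 3.33% to 21.8%). The interval at E13.5 holds the 13.8% found in all cells of that stage.

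Few cells had both Slc17a6 and a Gad gene. Of the cells with Slc17a6, 8 had Gad1 or Gad2, which is 14.3% of the 56 cells with a Gad gene (6.38% to 26.2%). Slc17a6 was present in 32.4% of all cells. At E12.5 a Gad gene was present in 2 of 67 cells with Slc17a6 (2.99%, 0.364% to 10.4%). That interval lies below the 14.6% found in all cells of that stage. At E13.5 the count was 6 of 72 (8.33%, 3.12% to 17.3%), and that interval holds the 13.8% found in all cells. At E10.5 and E11.5 it was 0 of 5 and 0 of 34. The E13.5 counts thus cannot show whether Slc17a6 and the Gad genes keep apart. In the 170 cells with Slc17a6 that lack Gad1 and Gad2 by definition, each of the remaining 8 genes was present in 0. That allows a share of up to 1.76% for each. These genes were also rare in all 494 cells without a Gad gene, from Slc32a1 in 1 (0.202%) to Dlx1 in 9 (1.82%). The 0 counts therefore cannot show whether these genes keep apart from Slc17a6. The 8 cells with both were taken at E12.5 (2) and E13.5 (6), and they had 4070 to 6804 genes at an RPKM of at least 1 (median 5950), against a median of 4086 in the 48 cells with a Gad gene and no Slc17a6. The 48 also held 2 cells from E10.5 and 8 from E11.5. Median depth was 1.20 M reads in the 48 and 1.83 M reads in the 8 cells with both. E13.5 cell 4, for example, had 290 RPKM of Gad2, 128.9 of Gata3, 525 of Barhl1 and 53.97 of Slc17a6. No doublet caller was run, and the part of mixed cells in this overlap was not tested.

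**Figure D5:**
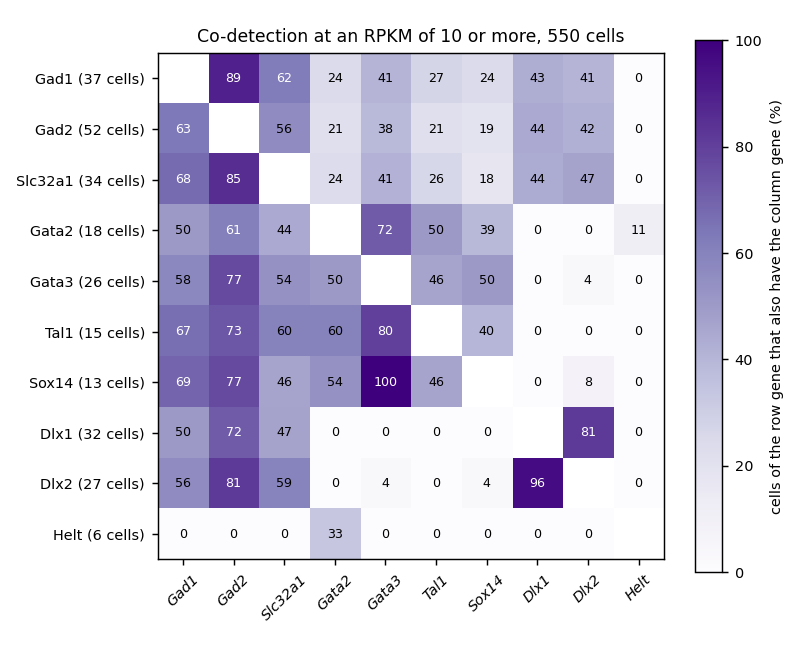
Of the cells with the gene in a row (number of cells in brackets), the share in % that also had the gene in the column, at an RPKM of 10 or more in 550 cells. Gata2, Gata3, Tal1 and Sox14 share cells with each other and not with Dlx1, and Helt shares cells with Gata2 only.

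Genes outside the 10 that differed most in detection between cells with a Gad gene and cells with Slc17a6 and no Gad gene are given as a description. At E12.5 Gm14204 was present in 17 of 26 cells with a Gad gene and 0 of 65 cells with Slc17a6, Slc30a3, a vesicular zinc transporter gene, in 13 and 0, Pnoc in 13 and 1, Lhx1 in 16 and 11, Nrxn3 in 14 and 7 and Dlx5 in 11 and 0. At E13.5 Gm14204 was present in 15 of 20 and 0 of 66, Nrxn3 in 14 and 8, 1500016L03Rik in 15 and 12, and Reln, the secreted guidance protein reelin, in 11 and 4. Among genes less frequent in cells with a Gad gene, Nhlh2 was present in 1 of 26 and 45 of 65 at E12.5 and in 4 of 20 and 48 of 66 at E13.5, Cacna2d1 in 3 and 51 and in 5 and 47, and Nr4a2 in 1 of 26 and 43 of 65 at E12.5. Gm14204 had the highest correlation with Gad2 in pools and, at both stages, the largest difference among genes more frequent in cells with a Gad gene.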

How the data were processed

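Cells were profiled with Smart-seq2 and Nextera XT libraries on a HiSeq 2000, per the labels' protocols. The submitters' processing notes name STAR 2.3.0 and the build mm10; the sources used here give no counter, annotation or filter. The authors deposited RPKM for the pools. For single cells the authors deposited log2 values, formed as log2(RPKM + 0.001) as their lowest value shows, which were turned back into RPKM. The tables hold no counts. Depth was estimated from the commonest step between low values in genes with 1 transcript; in pools a median of 31.2% of these values lay within 0.05 of whole reads, against 10% if spread evenly, so these depths are rough. No 2 columns were identical.

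Genes that reached an RPKM of 1 in 6 or more of the 24 pools were fitted as log2(RPKM + 1) with limma 3.58.1 (R 4.3.3), using 4 group means, variances moderated with a trend and Benjamini-Hochberg adjustment over 15871 genes; the threshold for a call was an adjusted p of 0.05. The reporter was left out. Fold changes of low genes are understated on this scale. Single cells were described without tests; Python 3.11.15, SciPy 1.17.1 and pandas 2.3.3 were used. Gene positions are from GENCODE M21.

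The members and lists were chosen with earlier results of these data known. Named were all 10 genes, up to 4 called genes per list and comparison with the largest log2 differences, the 5 genes most correlated with Gad2, Tal1 and Dlx1, and, of the 10 genes per stage with the largest difference in detection, those printed. Lists covered GABA metabolism, fate factors, neuropeptides, receptors, glutamate transporters, pan-neuronal genes and markers of other cell types. Six6, Skor2, Hoxa2 and Hoxb1 in pools and Ptf1a in cells were not analysed here, and some other genes of the lists are not reported here.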

Additional observations from a re-analysis of the deposited data

Results flagged for a closer look

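Of 40 combinations of gene and group of pools, 37 had a range above 0, and in 14 of them 1 pool lay further from the rest than Dixon's 95% criterion allows. By chance that criterion flags about 1 in 20 groups of normally distributed values, and RPKM values need not be so distributed. In 5 of the 14 the other 5 pools were all listed at 0, so that any value above 0 was set apart, and that rate does not apply to values at the floor. Of the 14 groups, 11 were GFP positive. In E10.5 GFP positive pool 1, Gata2 (10.8 RPKM), Tal1 (7.28), Gata3 (0.501) and Gad2 (0.137) were set apart, against at most 0, 0.532, 0.123 and 0 RPKM in the other 5 pools. In E13.5 GFP positive pool 5, Dlx1 (12.48 RPKM) and Dlx2 (3.47) were set apart, against at most 2.47 and 0.308 RPKM. Sox14 (5.65 RPKM) was set apart in E13.5 GFP positive pool 2, and Tal1 (2.05) and Helt (0.249) in pool 6 of that group. Helt (3.86) was set apart in E10.5 GFP positive pool 2 and Dlx1 (0.157) in pool 4. Among GFP negative pools, Helt was high in E13.5 pool 3 (16.4 RPKM), Gad1 was high in E13.5 pool 6 (63.1) and Gad1 was low in E10.5 pool 5 (0.876, against 6.30 to 7.87 in the others).

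The difference between GFP classes changed between stages for Gata3 (-2.59 on the log2 scale, E13.5 minus E10.5) and Gad1 (-1.84), by the interaction term of the limma fit (adjusted p = 0.00282 and 0.0444).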

How the results depend on the processing

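The counts of genes lower in GFP positive pools, 9 at E13.5 and 10 at E10.5, did not change when any 1 pool was left out (9 to 9 and 10 to 10). Leaving out 1 pool gave 1 to 3 calls for stage in GFP positive pools, 7 to 8 in GFP negative pools and 1 to 3 for the difference between stages. Stage in GFP positive pools gave 5 calls with a pseudocount of 0.1 and 1 with a pseudocount of 5, and the difference between stages gave 0, 4 and 1 calls with a pseudocount of 0.1, a pseudocount of 5 and no filter. Without the 5 globin-rich E10.5 GFP negative pools, an alternative chosen after the data were seen, 6 genes were lower at E10.5, 4 were called for stage in GFP negative pools and 1 for the difference between stages. The cause was not tested. The sign of uncalled differences turned for stage in GFP positive pools for Gata2 (0.20 with a pseudocount of 0.1, and -0.3809 to 0.36 with 1 pool left out, the higher value without E10.5 GFP positive pool 1), Tal1 (-0.462 to 0.27, the higher value without that pool) and Helt (-0.4026 to 0.0535, the higher value without E10.5 GFP positive pool 2), and for the difference between stages for Gad2 (1.51), Slc32a1 (0.66) and Dlx1 (0.91) with a pseudocount of 0.1 and Dlx1 (0.043) without the globin-rich pools. The share of E12.5 cells with a Gad gene was 7.94% in cells with C titles alone, and other shares stayed within their intervals under the alternatives run. No paired analysis was possible because the labels give the pools no replicate numbers that tie GFP positive to GFP negative pools. An absent gene in a cell may lie under the depth of that cell.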
